A study of Mus musculus with 10 samples.

Results

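The 32 genes described here are Trp53, which encodes the tumor suppressor p53 in the mouse, and genes established as its targets, taken by symbol from the tables of gene values for 2 mouse models of Larp7 loss. Of these, 22 were measured among the 15498 genes of the embryonic table and all 32 among the 15989 genes of the adult table, and each measured member also passed the filter on low values. Cdkn1a, Mdm2, Pmaip1, Sesn1, Perp, Rrm2b, Plk2, Ei24, Polk and Ccnk were not analysed at E15.5. The members were taken by name, but the list was drawn up with earlier results of these data known.

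LARP7 is an RNA-binding protein that stabilizes the noncoding RNA 7SK and so holds back the transcription elongation kinase P-TEFb, and the series asks what its loss does to the heart. All mice were on the C57BL/6 strain. At E15.5, an embryonic stage before birth, whole hearts of 3 wild-type samples (Larp7+/+) were compared with 3 samples of the conventional knockout (Larp7-/-). At 4 months of age, apex tissue of 2 control samples with floxed alleles (Larp7f/f, called CTR) was compared with 2 samples that also carry Cre (Myh6Cre;Larp7f/f, called mCKO). In the adult both groups therefore carry the floxed alleles, and Cre under the Myh6 promoter acts in cardiomyocytes, while the apex RNA comes from all cell types of the tissue. No adult control with Cre alone is among the groups. Whether each sample was a different animal is not stated in the labels, and the p-values below cover no more than the variation among the samples at hand, which may be technical.

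p53 is a transcription factor that is kept at a low level by the ubiquitin ligase Mdm2 and is stabilized when DNA is damaged or when ribosome assembly, nucleotide supply or oxidative balance is disturbed. It then binds a DNA element made of a pair of like decamers and raises the transcription of genes that halt the cell cycle, promote cell death, repair DNA or adjust metabolism, and of genes such as Mdm2 and Ppm1d that switch p53 off again. In heart muscle, whose cells largely leave the cell cycle after birth, p53 is known for its part in cell death, in mitochondrial control and in the response to pressure and to oxidative stress.

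The p53 element can be seen in the promoters of several members. RefSeq promoter windows of 300 bases, from 250 before to 50 after a transcript start (build GRCm38.p6, the same coordinates as mm10), were found for 25 of the 32 members. Each was searched for the p53 consensus element, read as 2 of its 10-base units in direct succession, which is its own reverse complement in pattern, allowing at most 3 letters off the consensus but keeping the fixed C and G of each unit. Such a 20-base match was present in the windows of 8 members (32% of 25), against 1.63% of all 27025 genes with a window. The members were picked as p53 targets, so the higher share is a description and no separate support. With at most 1 letter off it was present in 3 members, Cdkn1a, Ccng1 and Rps27l, and in 22 genes in all. The 8 matches are shown because they separate members with the element near an annotated transcript start from those whose windows lack it. The 20 matched bases are in capitals with 5 bases of flank on each side, 5′ to 3′ on the strand of the gene.
Cdkn1a: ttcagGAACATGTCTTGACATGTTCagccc
Ccng1: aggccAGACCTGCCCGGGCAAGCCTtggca
Rps27l: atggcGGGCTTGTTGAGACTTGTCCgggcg
Trp53: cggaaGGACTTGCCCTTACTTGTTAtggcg
Bbc3: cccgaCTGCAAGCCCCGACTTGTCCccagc
Aen: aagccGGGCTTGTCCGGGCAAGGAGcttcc
Sesn1: ccttcAAGCTTGTTTTTGCTGGCCTggtcc
Tigar: gcggcGGTCTAGCTCTGGCAAGACTccagg

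The Cdkn1a stretch lies at chr17:29090923-29090952 on the plus strand. Its match begins 51 bases before an annotated transcript start, near the outermost start of the gene at 29090976. Which start is used in the heart was not examined. The Ccng1 stretch lies at chr11:40755457-40755486 on the minus strand, with the match 195 bases before the start, and that of Rps27l at chr9:66946291-66946320 on the plus strand, 117 bases before an annotated start. Those of Trp53 (chr11:69580279-69580308, plus strand), Bbc3 (chr7:16309481-16309510, plus strand), Sesn1 (chr10:41887261-41887290, plus strand) and Tigar (chr6:127109741-127109770, minus strand) begin 75, 97, 173 and 213 bases before a start. The Aen match (chr7:78895932-78895961, plus strand) begins at base 11 of the transcript. The stretches of Rps27l, Bbc3, Sesn1 and Aen lie within the span of the gene, near a start that is not its outermost one. That of Sesn1 is far inside, as the gene begins at 41809935. Btg2, Eda2r and Phlda3, on which results below turn, have windows without a match at this setting, which says only that these letters are not in these windows. A match is a description of sequence, and binding was not measured in these data.

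The deposited values, whole numbers on a per-million scale, sum to between 998498 and 1001508 in each sample. Sequencing depth is therefore unknown, and no counting error can be given. Values are compared within a gene only, because it is not given whether they were divided by gene length. In every member, and in nearly every other gene, a control sample and the knockout sample with the same number add up to 1 common total, within 2. The deviations of such a pair mirror each other, the SDs of both groups are therefore nearly equal, and the spread is that of the differences between the 3 embryonic or 2 adult pairs. All log2 changes are knockout against control on the log2(value + 1) scale. Larp7 itself (chromosome 3, 127536714 to 127553349, minus strand) was 96, 88 and 103 in the wild-type embryonic hearts and 45, 54 and 40 in the knockout hearts (log2 change -1.04, SE 0.17, adjusted p = 0.00159, limma). In the adult apex it was 26 and 28 in CTR and 26 and 24 in mCKO, and those groups share the value 26, which leaves the adult labels unchecked by this gene.

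In the embryonic hearts 2 of the 22 measured members rose in the knockout, Btg2 and Eda2r, and 0 fell (adjusted p under 0.05, limma with Benjamini-Hochberg adjustment over 13609 genes). At an unadjusted p under 0.05 there were 5 members and 1893 genes. Over all tested genes 0.529% were called higher and 0.103% lower. Both calls were lost with the more cautious prior used for the adult below (adjusted p = 0.613 for each, limma), under which 0 of 13609 genes were called. On simulated data the prior behind both calls called more unchanged genes than the threshold allows, and the cautious prior missed every changed gene. The spread in that simulation was set by hand and not fitted to these data, so it cannot decide which prior suits Btg2 and Eda2r. The log2 changes of the members had a median of 0.12, against 0.11 over all tested genes, and ran from -0.32 to 1.00. Most members differed little, in that 13 of 22 had a change smaller than 0.25 in size. The values of knockout and wild type did not overlap in 9 members, with the knockout higher in 8 (36.4%, against 19.3% of all tested genes) and lower in 1 (4.55%, against 8.75%). With a log2 change of at least 0.5 as well, 3 members stood higher (13.6%, against 6.88%) and 0 lower (against 1.57%). A positive change was found in 15 members (68.2%, against 60.4%).

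**Figure D1:**
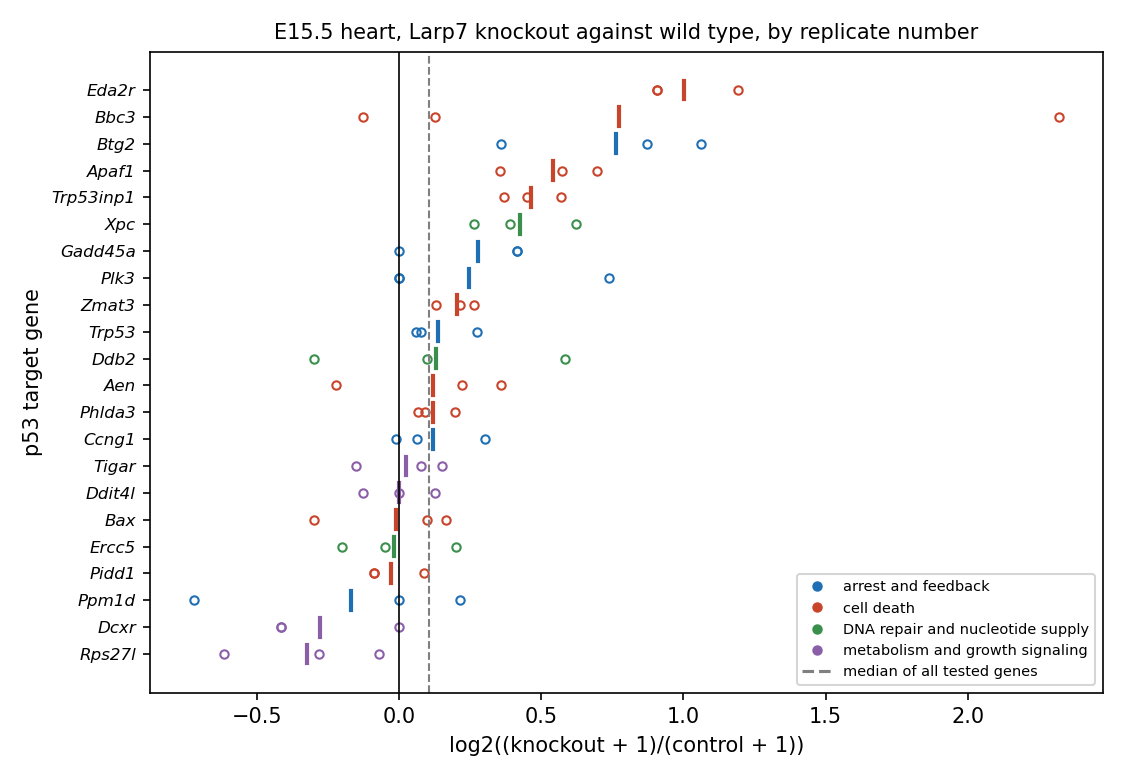
Log2 change of each of the 22 p53 target genes at E15.5 (horizontal axis, log2 of knockout over wild type with 1 added to both values), 1 open circle per pair of the same replicate number and a bar at the mean of the 3 pairs, colored by role. Eda2r lies farthest right at 1.00 with its 3 circles together, whereas Bbc3, at 0.77, rests on the circle of number 3, and most other genes lie near the dashed line, the median of all tested genes (0.11).

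Among the genes of growth arrest and of p53 feedback, Btg2, an antiproliferative partner of the mRNA deadenylation machinery (chromosome 1, 134075170 to 134079120, minus strand), had the largest log2 change of this group. Its wild-type values were 147, 135 and 183, and its knockout values were 270, 283 and 235. Every knockout value stood above every wild-type value, and the gap was smallest between the samples numbered 3. The log2 change was 0.76 (SE 0.17, adjusted p = 0.0302, limma), or 1.69 times the wild-type mean. The authors' deposited table gives Btg2 an adjusted p of 0.034. The call was lost without either sample numbered 1 (adjusted p = 0.21 and 0.201, limma), where the log2 change was 0.71.

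Trp53, the gene of p53 itself, had wild-type values of 66, 72 and 72 and knockout values of 80, 76 and 75. The groups did not overlap, but the log2 change of 0.14 (SE 0.16) missed the threshold (adjusted p = 0.751, limma). Ccng1, cyclin G1, which directs a phosphatase to Mdm2, was 294, 270 and 302 against 307, 333 and 300, with overlapping groups, and its log2 change was 0.12 with an SE of 0.17 (adjusted p = 0.788, limma). Ppm1d, the phosphatase that reverses checkpoint phosphorylation, had a wild-type mean of 27.3 ± 4.16 (SD, n = 3) and a knockout mean of 24.3 ± 4.73. The kinase gene Plk3 and Gadd45a, a growth arrest gene, had values of 2 to 4 in every embryonic sample, where a step of 1 in a rounded value is a large part of the level. Of the 6 measured genes of arrest and feedback, 5 were above 0, and their median change was 0.19.

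Among the genes of cell death, Eda2r, the receptor for ectodysplasin A2 and a member of the tumor necrosis factor receptor family (chromosome X, 97333840 to 97377216, minus strand), rose from 7, 6 and 7 to 14, 15 and 14. Every knockout value was at or above double every wild-type value, and the mean was 2.15 times that of the wild type, or a log2 change of 1.00 with an SE of 0.25 (adjusted p = 0.0496, limma). This call is at the edge of the threshold, and it was lost under every option of leaving out a sample numbered 1 or 2 (adjusted p between 0.079 and 0.142, limma). In the authors' deposited table its unadjusted p is 0.085. At these low levels rounding alone makes up part of the uncertainty.

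Apaf1, the scaffold that activates caspase 9 once cytochrome c is released, had values of 42, 38 and 36 in the wild type against 54, 57 and 59. All 3 knockout values were above all wild-type values, by 1.47 times in the means, yet the log2 change of 0.54 (SE 0.16) did not pass over all genes (adjusted p = 0.121, limma). Trp53inp1, a stress-induced regulator of autophagy and cell death, was 28, 29 and 30 against 42, 40 and 39, without overlap (adjusted p = 0.211, limma). Zmat3, a zinc-finger protein that binds RNA, was 31, 29 and 30 against 34, 35 and 35, also without overlap. For Bbc3, which encodes the BH3-only protein Puma, the wild-type values were 10, 11 and 3 and the knockout values 11, 10 and 19. Its log2 change of 0.77 (SE 0.63, adjusted p = 0.681, limma) thus came from the pair numbered 3 alone. Without either sample numbered 2 it was called (log2 change 1.22, adjusted p = 0.0133 and 0.0127, limma). The 2 pairs then left were unequal, at 0.13 and 2.32 on the log2 scale. Those fits also called 419 and 399 genes higher, against 72 in the reported fit.

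Bax, the pore-forming effector of mitochondrial cell death, was 40, 47 and 41 against 45, 38 and 44, with groups that overlapped (log2 change -0.01, SE 0.17, adjusted p = 1, limma). Phlda3, a pleckstrin-domain protein that competes with Akt at the membrane (chromosome 1, 135766119 to 135769136, plus strand), was 101, 105 and 106 against 116, 112 and 111. These groups did not overlap, but the log2 change was only 0.12 (SE 0.16, adjusted p = 0.77, limma). Aen, an exonuclease of apoptotic DNA, was 56, 59 and 69 against 72, 69 and 59, with the pair numbered 3 going the other way (log2 change 0.12, SE 0.16, adjusted p = 0.776, limma). Pidd1, the scaffold that activates caspase 2, varied only between 15 and 16. In all, 7 of the 9 measured death genes lay above 0 (median 0.20).

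The repair genes were led by Xpc, which recognizes damaged bases in nucleotide excision repair, at 28, 29 and 25 against 37, 35 and 39, without overlap (log2 change 0.42, SE 0.18, adjusted p = 0.262, limma). The other damage sensor, Ddb2, was 15, 11 and 13 against 12, 17 and 14, and the repair endonuclease Ercc5 was 30, 26 and 28 against 26, 30 and 27. The groups overlapped in both.

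In the group of metabolism and growth signaling, Rps27l, a ribosomal protein gene closely related to Rps27, was the single member with a knockout group wholly below the wild type. Its values were 41, 44 and 48 against 39, 36 and 31, and the log2 change of -0.32 (SE 0.17) missed the threshold (adjusted p = 0.401, limma). The counting of reads that Rps27l may share with Rps27 is not described, so its values are uncertain. Tigar, a fructose bisphosphatase that slows glycolysis, was 17, 17 and 19 against 18, 19 and 17, and Ddit4l, an inhibitor of mTOR signaling, was 10 or 11 in all samples. Dcxr, a sugar reductase, had values of 2 or 3 throughout.

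In the adult apex no single gene passed the test, among the members or elsewhere: 0 of 32 members and 0% of 14835 genes were called higher or lower at an adjusted p under 0.05 (limma, with prior degrees of freedom estimated where rounding is small), and 106 genes had an unadjusted p under 0.05. This fit has 1 residual and 0.832 prior degrees of freedom, so that a missed threshold does not show that values did not differ. When limma estimated the prior from all genes, its degrees of freedom became infinite, which replaces each gene's own spread by that typical of its level. Then 2.34% of genes were called higher and 0.950% lower. Under that prior 5 members were called higher (15.6% of 32), namely Phlda3, Cdkn1a, Plk2, Ccng1 and Btg2, and 0 lower.

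The members as a list lay above the genes in general. The median log2 change of the 32 members was 0.28, against 0.08 over all tested genes, and 26 had a positive change, 5 a negative one and 1 none (81.2% positive, against 57.9% of all tested genes). The mCKO values lay above the CTR values without overlap in 18 members (56.2%, against 29.3% of all tested genes) and below them in 2 (6.25%, against 12.8%). In 7 members the non-overlapping mCKO values were higher by at least 0.5 on the log2 scale (21.9%, against 7.63%), and in 0 lower by as much (against 2.32%). These shares describe members that were picked as p53 targets, and no test of the list was made. In bulk tissue, fewer cells of a type and less RNA per cell cannot be told apart.

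**Figure D2:**
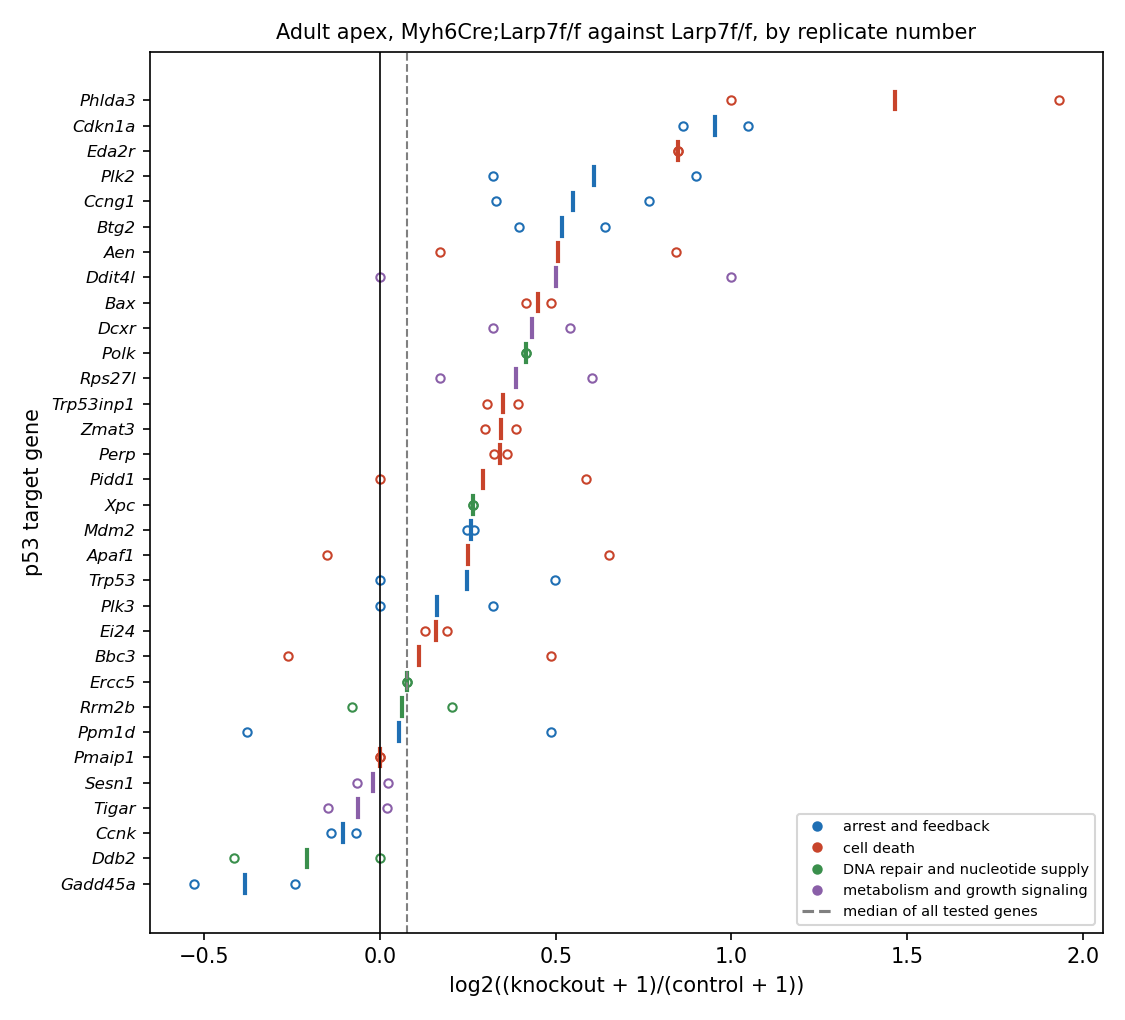
Log2 change of each of the 32 p53 target genes in the adult apex (horizontal axis, log2 of mCKO over CTR with 1 added to both values), 1 open circle for each of the 2 pairs of the same replicate number and a bar at their mean, colored by role. Phlda3 (1.47), Cdkn1a (0.95) and Eda2r (0.85) lie farthest right, Gadd45a (-0.39) lies farthest left, and most bars lie right of the dashed line, the median of all tested genes (0.08).

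Cdkn1a encodes p21, the inhibitor of cyclin-dependent kinases through which p53 halts the cell cycle, and is the member whose promoter element is shown first (gene on chromosome 17, 29090976 to 29100727, plus strand). It was 48 and 44 in CTR and 88 and 92 in mCKO. The mCKO mean was 1.96 times the CTR mean, with a log2 change of 0.95 (SE 0.12) and an unadjusted p of 0.0196, the single member under 0.05, but an adjusted p of 0.95 over all genes (limma). With the estimated prior the adjusted p was 6.41e-08 (limma). The authors' deposited table gives an unadjusted p of 0.013 and no adjusted one.

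Ccng1, the other arrest gene with a near-perfect element, was 988 and 826 in CTR and 1243 and 1405 in mCKO. The groups did not overlap (log2 change 0.55, SE 0.18, adjusted p = 0.95, limma), and with the estimated prior the adjusted p was 0.00376 (limma). Its unadjusted p of 0.00293 is the lowest among the members in the authors' deposited table. Btg2 was 37 and 33 against 49 and 52 (log2 change 0.52, SE 0.14, adjusted p = 0.95, or 0.0309 with the estimated prior, limma). Plk2, a kinase of the polo-like family, was 27 and 21 against 34 and 40 (log2 change 0.61, SE 0.24, adjusted p = 0.95, or 0.0119 with the estimated prior, limma). In all of these the 2 mCKO samples were above both CTR samples.

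Mdm2, the ligase that returns p53 to a low level, was 63 and 63 in CTR and 75 and 76 in mCKO, a narrow and non-overlapping difference of 0.26 on the log2 scale (SE 0.10, adjusted p = 0.95, or 0.505 with the estimated prior, limma). Trp53 RNA was 16 and 20 against 23 and 20, with a shared value, and its log2 change was 0.25 (SE 0.23, adjusted p = 0.95, limma). Ppm1d was 9 and 12 against 13 and 9. On the other side, Gadd45a was 12 and 12 in CTR and 8 and 10 in mCKO, the largest difference below 0 among the members (log2 change -0.39, SE 0.20, adjusted p = 0.95, limma), and Ccnk, cyclin K, was 42 and 42 against 38 and 40. Together 8 of 10 genes of arrest and feedback were above 0 (median 0.25).

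Of the genes of cell death, Phlda3 had the largest difference of any member. It was 10 and 17 in CTR and 41 and 35 in mCKO, or 2.81 times the CTR mean. The log2 change was 1.47 (SE 0.37) and its adjusted p 0.95 (limma). The 2 pairs were unequal, at 1.93 and 1.00 on the log2 scale, and the adjusted p was 4.44e-13 with the estimated prior (limma), which does not use that spread. Eda2r was 4 and 4 against 8 and 8, at a very low level (log2 change 0.85, SE 0.22, adjusted p = 0.95, or 0.109 with the estimated prior, limma). Aen was 23 and 31 against 42 and 35 (log2 change 0.51, SE 0.27, adjusted p = 0.95, or 0.0563 with the estimated prior, limma), and Bax was 14 and 14 against 19 and 20 (log2 change 0.45, SE 0.14, adjusted p = 0.95, or 0.241 with the estimated prior, limma).

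**Figure D3:**
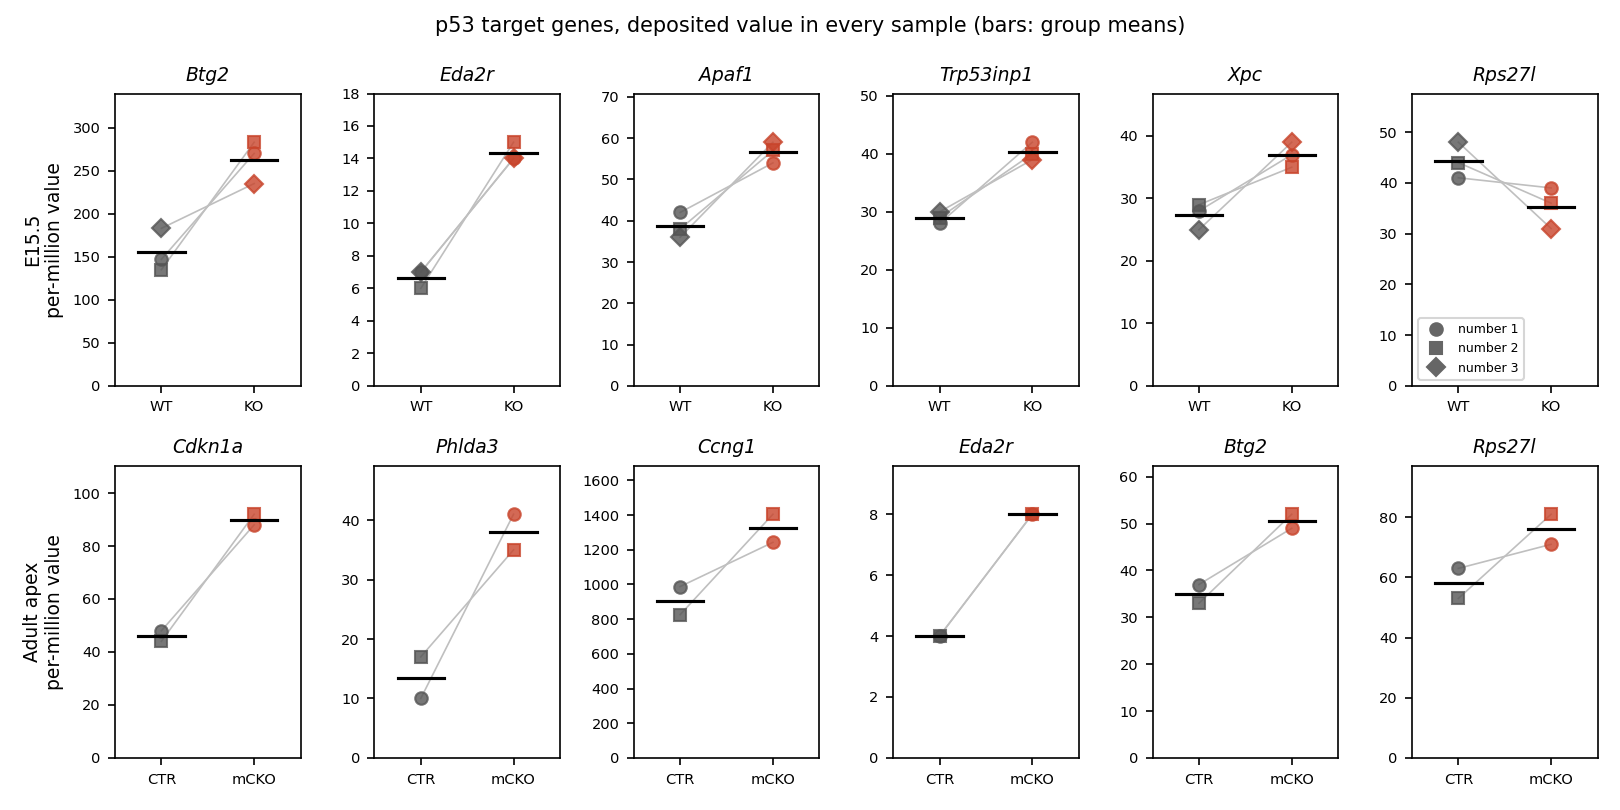
Deposited per-million value (vertical axis, from 0) of 6 p53 target genes in every sample at E15.5 (top row, 3 wild-type and 3 knockout samples) and of 6 in the adult apex (bottom row, 2 CTR and 2 mCKO samples); marker shapes give the replicate number, thin lines join pairs of the same number and bars are group means. The Eda2r mean is about doubled in both rows, and the knockout samples of Rps27l lie below the controls at E15.5 and above them in the adult.

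The remaining death genes showed smaller differences in the adult. Perp, a membrane protein of desmosomes that promotes cell death, was 140 and 142 against 180 and 178, and the autophagy gene Ei24 was 84 and 86 against 96 and 94. Zmat3 was 12 and 12 against 15 and 16, and Trp53inp1 was 16 and 15 against 20 and 20. All 4 were higher in both mCKO samples and none passed the test under either prior (adjusted p between 0.227 and 0.809 with the estimated prior, limma). Apaf1, which was higher in every embryonic knockout sample, was 6 and 9 in CTR and 10 and 8 in mCKO, with overlapping groups (log2 change 0.25, SE 0.35, adjusted p = 0.95, limma). Bbc3 was 4 and 5 against 6 and 4, Pidd1 had values of 1 or 2, and Pmaip1, which encodes the BH3-only protein Noxa, was at 1 in all 4 samples. Of 12 death genes 11 were above 0 (median 0.34).

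The DNA repair genes showed small and mixed differences. Xpc was 14 in both CTR samples and 17 in both mCKO samples, and Polk, a polymerase that copies past damaged bases, was 5 and 7 in the same way. Ercc5 was 17 in both against 18 in both. Rrm2b, a ribonucleotide reductase subunit for repair in resting cells, was 36 and 32 against 34 and 37, and Ddb2 was 3 and 2 against 2 and 2. The median of these 5 genes was 0.08, the same as that of all tested genes at this rounding.

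Among the genes of metabolism and growth signaling, Rps27l was 63 and 53 in CTR and 71 and 81 in mCKO (log2 change 0.39, SE 0.19, adjusted p = 0.95, limma), and Dcxr was 11 and 10 against 14 and 15. The sestrin gene Sesn1 was 132 and 136 against 134 and 130, and Tigar was 67 and 71 against 68 and 64, with overlap in both. Ddit4l was at 0 or 1. The adult log2 changes of the members with a promoter element shown above ran from -0.06 for Tigar to 0.95 for Cdkn1a. Those of the members with a window but no match ran from -0.39 for Gadd45a to 1.47 for Phlda3. Whether the element goes with the size of the change was not tested.

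Between the models, 22 members could be set side by side. Of these, 12 had a positive change in both (54.5%, against 39.6% of 9769 genes tested in both tables) and 0 a negative one in both. The share of all genes with a negative change in both was not computed, but 52.6% of all genes had the same sign in both. Across these members the log2 changes had a Pearson r of 0.12 and a Spearman rho of 0.01, against 0.15 and 0.15 over all genes tested in both. Genes are not independent replicates, and these values are descriptions. Several members had unlike log2 changes in the 2 models, though none of these differences passed in the joint fit below. That of Phlda3 was 0.12 in the embryo against 1.47 in the adult. The values were 0.12 and 0.55 for Ccng1, -0.01 and 0.45 for Bax, 0.77 and 0.11 for Bbc3, and 0.54 and 0.25 for Apaf1. The groups of Bbc3 overlapped in both models, and its embryonic change came from the pair numbered 3 alone. Eda2r (1.00 and 0.85) and Btg2 (0.76 and 0.52) were the 2 with at least 0.5 and no overlap in both. The share of all genes that meet this was not computed, so it is not known whether 2 of 22 is unusual. In a joint fit of both tables the change differed between the models in 0 of the 22 members (limma interaction term). Under either prior 0% of 9769 genes were called. At an unadjusted p under 0.05 there were 2, Phlda3 and Rps27l, under either prior. The share of all genes under that threshold was not computed, so whether this is unusual is not known. The largest difference, that of Phlda3, was 1.35 (SE 0.27 with the estimated prior). Its unadjusted p was 0.000787 and its adjusted p 0.275 with that prior, or 0.00243 and 0.567 with the cautious one (limma). Age, tissue sampled and type of deletion all differ between the models and cannot be told apart.

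**Figure D4:**
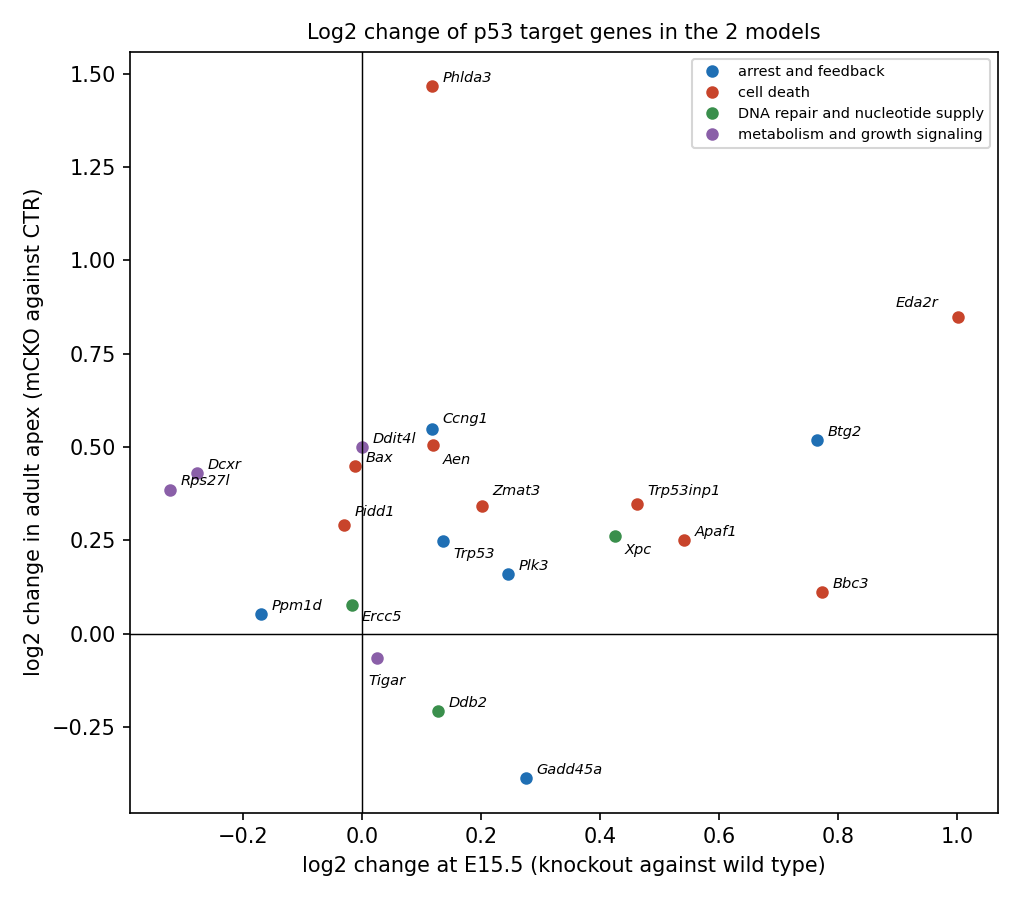
Log2 change of the 22 p53 target genes measured in both models, at E15.5 on the horizontal axis and in the adult apex on the vertical axis, colored by role. Eda2r and Btg2 lie far from 0 on both axes, Phlda3 only on the adult axis (0.12 and 1.47), and Rps27l and Dcxr lie left of 0 and above 0.

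Other genes around p53 were compared as lists. Of 26 regulators and relatives of p53, 17 were tested at E15.5 with a median of 0.12, and 23 in the adult with a median of 0.08, and 0 were called in either, under both priors. Mdm4, a relative of Mdm2 that also restrains p53, was 94, 80 and 76 against 74, 88 and 92 at E15.5, and 32 and 35 against 37 and 34 in the adult. Atm, the kinase that signals DNA breaks, was 6 and 6 against 6 and 7 in the adult and was not analysed at E15.5. Mdm4 overlapped between the groups of both models, and Atm between those of the adult.

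Of 26 further p53 targets outside the 32, 18 were tested at E15.5, with 14 positive and a median of 0.25. Sesn2, a sestrin that restrains mTOR, rose from 15, 10 and 12 to 21, 26 and 24 (log2 change 0.90, SE 0.22, adjusted p = 0.0475, or 0.613 with the cautious prior, limma) and was the single called gene. In the adult it was 5 and 6 against 7 and 6. There the 24 tested genes had a median of 0.07, 12 positive and 9 negative, and 0 were called in the reported fit. Gdf15, a secreted stress factor, was 3, 3 and 2 against 4, 5 and 10 at E15.5 (adjusted p = 0.2, limma) and 1 and 4 against 16 and 14 in the adult (adjusted p = 0.95, or 4.77e-12 with the estimated prior, limma). Sesn2 and Gdf15 are also targets of the integrated stress response, whose 17 tested genes at E15.5 had a median of 0.67 with 3 called higher (Mthfd2, Chac1 and Sesn2).

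Cell cycle genes that p21 is known to lower were at very low levels in the adult, where the 19 measured genes summed to between 30 and 48 in CTR and between 72 and 90 in mCKO. Some of the 18 tested, such as Ccnb1 and Birc5 at 0 in both CTR samples, passed the filter on low values only through mCKO, so the signs of the tested genes are no support. None was called in the reported fit, and 2 were called higher with the estimated prior. These were the proliferation marker Mki67, at 1 and 5 against 11 and 8 (adjusted p = 0.95, or 0.000125 with the estimated prior, limma), and the topoisomerase gene Top2a, at 2 and 5 against 12 and 9 (adjusted p = 0.95, or 0.00023 with the estimated prior, limma). At E15.5 the list had a median of -0.05, with 7 of 17 positive and 0 called. Of the Bcl2 family and caspases, 11 were tested at E15.5 (median 0.05, 0 called) and 18 in the adult (median 0.15, 0 called, or 1 with the estimated prior). That gene, Bcl2, which opposes Bax, was 12 and 10 against 18 and 19 in the adult (adjusted p = 0.95, or 0.0239 with the estimated prior, limma) and 42, 39 and 42 against 55, 58 and 55 at E15.5.

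**Figure D5:**
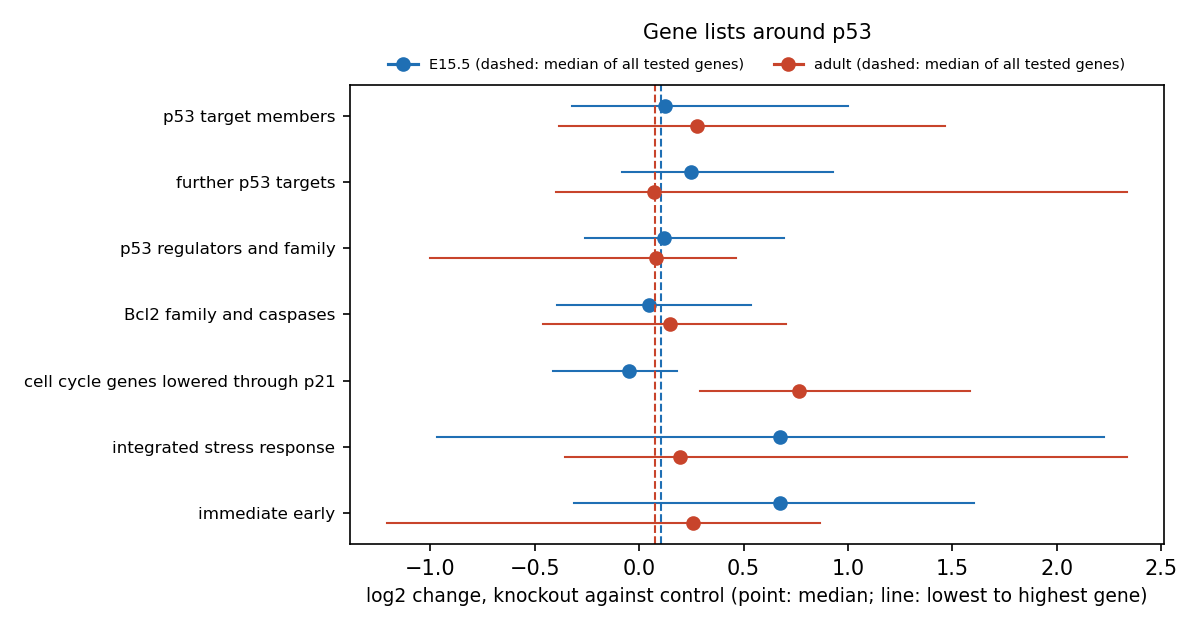
Median (point) and lowest to highest gene (line) of the log2 change in 7 gene lists of the embryonic and the adult table, with dashed lines at the medians of all tested genes. In the adult the 32 p53 targets have a median of 0.28 and the cell cycle genes one of 0.76, which holds genes that passed the filter only through mCKO, while the integrated stress response and immediate early lists stand highest at E15.5, at 0.67 and 0.68.

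Some marker sums differed beside these results, and their part in them was not tested. Btg2, Gadd45a and Plk2 are also immediate early genes, though they are not in the list of such genes summed here. At E15.5 the 15 genes measured of that list summed to 373, 429 and 270 in the wild type and to 494, 442 and 642 in the knockout (median log2 change 0.68, 0 called). The gap was widest between the samples numbered 3 and smallest between those numbered 2. That of Btg2 was smallest between the samples numbered 3. Cardiomyocyte markers summed to between 18614 and 22127 in the wild type and between 13424 and 16935 in the knockout at E15.5, with 6 of 6 lower (Tnnc1 called). In the adult they summed to between 63964 and 64866 in CTR and between 61016 and 61920 in mCKO. There 6 of 10 were lower and 4 higher, with log2 changes from -0.32 to 1.47 (0 called, or 1 higher with the estimated prior). Fibroblast markers summed to between 1185 and 1500 in CTR and between 2270 and 2587 in mCKO, with 7 of 8 higher. Their log2 changes were uneven, from -0.01 to 2.46, and 0 were called under either prior. At E15.5 they summed to between 3683 and 4601 in the wild type and between 4561 and 5476 in the knockout, with 4 of 5 higher. Among them Pdgfra was called, at 71, 72 and 69 against 115, 115 and 118 (adjusted p = 0.0296, limma). The adult endothelial markers (818 to 853 against 763 to 800), smooth muscle and pericyte markers (842 to 851 against 818 to 828) and macrophage markers (627 to 634 against 742 to 750) differed by less than the fibroblast markers did. At E15.5 the endothelial markers summed to 1153 to 1271 in the wild type and 1252 to 1369 in the knockout, the 2 measured smooth muscle markers to 141 to 166 and 122 to 146, and the macrophage markers to 89 to 105 and 100 to 117. The 2 smooth muscle markers went opposite ways. Rgs5 was called lower, at 83, 76 and 80 against 39, 47 and 42 (adjusted p = 0.00694, limma), while Pdgfrb was 83, 77 and 61 against 83, 88 and 104. Erythroid markers ranged widely within groups, from 3127 to 7711 in the wild type and 4818 to 9633 in the knockout at E15.5, and from 129 to 1486 and 1273 to 2889 in the adult. The 7 measured markers of stratified epithelium summed to 185 in number 1 of the embryonic knockout, to 60 and 66 in the other knockout samples and to 48 to 74 in the wild type. Eda2r was 14 and Btg2 270 in that sample, within the range of the other knockout hearts. Of the epithelial markers Lad1 was called higher at E15.5, at 2, 7 and 4 against 17, 12 and 16 (adjusted p = 0.0322, limma). The calls of Tnnc1, Pdgfra, Rgs5 and Lad1 were all lost with the cautious prior (adjusted p = 0.613 for each, limma). In the adult the epithelial markers summed to between 5 and 9 in CTR and to 15 in both mCKO samples. No measured marker of these lists was at 0 in every sample of its table.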

How the data were processed

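Each model has a table deposited by the authors with 1 score per sample for each gene, which from its values is a per-million value in whole numbers. Per the submitters' processing notes, HISAT2, HTSeq and mm10 were used. No source used here describes the scaling, adjustment and rounding. The deposited tables also hold the authors' log2 fold changes and p-values, per the file headers. The common totals of same-numbered samples (tolerance 2) held in 8328 of 8366 genes with a mean of at least 10 at E15.5 and in 8642 of 8658 in the adult.

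The 2 groups of a table were fitted with limma 3.58.1 (R 4.3.3). Its input was log2(value + 1), for genes that reached 1 in at least as many samples as a group holds. The replicate number was a block, on account of the common totals and not of a pairing given in the labels. The variance of rounding (0.0833 on the value scale) was added to each gene's variance. At E15.5 eBayes used trend and robust options (median prior degrees of freedom 27.5); in the adult 1 value for all genes was used, estimated without rounding variance in genes with a mean of at least 10. This differs from the treatment of E15.5 because the prior decides a test with 2 pairs. The fits were tested on simulated data: fold changes were recovered without bias, the estimated prior called more unchanged genes than the threshold allows, and the cautious prior called neither unchanged nor changed genes. Gene levels in the simulation came from these data, but the spread was set by hand. Changed genes all had a mean of at least 10, and no filter on low values was applied. With another spread the outcome could differ. Members got full values when called, or non-overlapping with a log2 change of at least 0.5 in size, or among Trp53, Mdm2, Cdkn1a, Ccng1, Bax and Phlda3. From the other lists genes called in the reported fit were named, with Mdm4, Atm, Sesn2 and Gdf15. Other genes named with values were chosen after their values were seen. The joint fit of both models was added after seeing the data. Members, lists and settings were chosen with earlier results of these data known. Symbols turned into dates (13 and 20 rows) were left as they are.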

Additional observations from a re-analysis of the deposited data

Results flagged for a closer look

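Rps27l went in opposite directions in the 2 models. Its log2 change was -0.32 at E15.5, with all 3 knockout values below those of the wild type, and 0.39 in the adult, with both mCKO values above those of CTR. The difference between the models was 0.71 (SE 0.24) and did not pass over all genes (limma interaction term). Its adjusted p was 0.508 with the estimated prior and 0.638 with the cautious one (limma). Groups of 3 or fewer samples were not examined for single outlying samples.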

How the results depend on the processing

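The alternatives changed how many genes passed far more than the fold changes. At E15.5 the reported 72 genes higher, 14 lower and 2 members called became 430, 174 and 5 with no replicate block, 701, 339 and 6 with neither replicate block nor rounding variance, and 39, 7 and 0 with a pseudocount of 0.5. They became 39, 6 and 0 with changed signs set to 0, and 0, 0 and 0 without rounding variance, with a mean of at least 10, with the cautious prior, or with both of the last (the combination chosen after seeing the data). Without a filter 480 were higher and 121 lower, with a pseudocount of 5 195 and 37, and with median-of-ratios scaling 26 were higher, 0 members were called and the median of the members was 0.062. Leaving out 1 sample gave 171 to 419 higher, 39 to 85 lower, 0 to 2 members and a member median of 0.113 to 0.144. Without the replicate block Apaf1, Trp53inp1 and Xpc joined Btg2 and Eda2r (adjusted p = 0.0273, 0.0273 and 0.0468, limma), and without a filter Apaf1 did (0.0471, limma).

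In the adult the reported 0, 0 and 0 became 356, 106 and 1 without rounding variance (the member was Eda2r), 1369, 613 and 10 with neither block nor rounding variance, 347, 141 and 5 with the estimated prior, and 356, 160 and 6 with that prior and a mean of at least 10, chosen after seeing the data. Leaving out an adult sample under the block leaves no residual degrees of freedom and gives values without a test.

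Members near 0 changed sign. With median-of-ratios scaling Tigar was -0.0349 at E15.5 and Ppm1d -0.00388 in the adult. Leaving out 1 sample at E15.5 gave -0.125 to 0.0743 for Ercc5, -0.1 to 0.133 for Bax, -0.1 to 0.342 for Ddb2, -0.037 to 0.115 for Tigar and -0.361 to 0.107 for Ppm1d. In the adult, over fits with and without the block, it gave -0.263 to 0.485 for Bbc3, -0.152 to 0.652 for Apaf1, -0.379 to 0.485 for Ppm1d, -0.0802 to 0.204 for Rrm2b and -0.0646 to 0.0215 for Sesn1. The cause of these differences was not tested. Unknown depth and rounding limit every value under about 10.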
